A study of Mus musculus with 6 samples.

Results

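tRNA modification enzymes are the proteins that methylate, isomerise, reduce, deaminate or otherwise alter the bases and riboses of transfer RNA after it is transcribed. The 52 genes described here were chosen by gene symbol, cytosolic and mitochondrial enzymes together, and every one of them had at least 1 probe set on the array. Each probe set reads 1 stretch of a transcript through several short oligonucleotides, and 33 of the genes had more than 1 probe set, up to 6. Together they had 107 of the 45101 probe sets. Of these, 79 probe sets of 50 genes passed the filter on low values, which kept the upper 60% of probe sets by mean log2 value (27022 in all, for 13897 genes). The genes without a kept probe set were Trmt12 and Tyw3, both of wybutosine synthesis.

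Testes of Alkbh1 knockout mice (KO, genotype Alkbh1-/-, 3 mice) were set against those of wild-type mice (WT, 3 mice), all 12 weeks old. The source label gives a C57/BL6 background for both groups, while the genotype field spells the strain C53/BL6. Total RNA of each whole testis sample was hybridised to 1 Affymetrix array, which gave 1 normalised log2 expression value per probe set. Neither the exons that were removed nor the way the allele was made is stated in the labels. Because a whole testis is a mixture of germ cells and somatic cells, fewer cells of a type and less RNA per cell cannot be told apart in any value below.

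A tRNA leaves the nucleus with many modified positions. Those in and beside the anticodon tune decoding, and those in the body of the molecule hold its fold. Most enzymes act on tRNAs of the nucleus and cytosol, a smaller set acts inside mitochondria on tRNAs encoded by the mitochondrial genome, and a few serve both compartments. Alkbh1, an iron and 2-oxoglutarate dependent dioxygenase, stands next to them: in mammalian cells it has been described as an enzyme that removes the methyl group of 1-methyladenosine from tRNA and that oxidises 5-methylcytidine at the wobble position of mitochondrial methionine tRNA. Writers of those marks include Trmt6 with Trmt61a and, in mitochondria, Trmt61b for 1-methyladenosine, and Nsun3 for the mitochondrial 5-methylcytidine.

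The targeted gene was low in all KO arrays. Probe set 1434660_at of Alkbh1 read 5.76, 5.30 and 5.20 log2 in the KO testes, against 8.43, 8.65 and 8.72 in the WT testes. The difference was -3.18 ± 0.15 (SE), with a limma adjusted p of 0.000582 over all arrays. With WT replicates 1 and 2 left out together it was -3.30 with an adjusted p of 0.0631, where 1 WT array remained and was assumed to vary like the KO arrays. Its other probe set, 1438681_at, read 6.03, 5.78 and 6.10 in KO and 6.97, 6.82 and 7.16 in WT (-1.02 ± 0.12, limma adjusted p = 0.0697), and whether either probe set lies within the removed sequence is not known here. Markers of the testis were present, with all 9 germ cell markers and all 7 Sertoli cell markers above the level filter. Of the markers with a probe set, 1 of 4 for epididymis, 1 of 2 for erythroid cells and 2 of 3 for fat were above it. The mean value over the germ cell markers ran from 13.42 to 13.46 in KO and from 13.33 to 13.44 in WT. That of the 3 Leydig cell markers with a probe set, all above the filter, ran from 11.04 to 11.37 in KO and from 10.92 to 11.31 in WT, with a median difference of 0.17 and overlap. That of the Sertoli cell markers ran from 9.58 to 9.62 in KO and from 9.67 to 9.68 in WT, without overlap, and that of the 3 fat markers with a probe set from 6.66 to 7.80 in KO and from 6.26 to 7.28 in WT. The part of these marker levels in the differences below was not tested. Pairs of arrays correlated at 0.989 to 0.996 over the probe sets. At 28 of the 50 tRNA modification genes WT replicate 1 or WT replicate 2 was the array farthest from the median of the 6. Each of them was farthest at 14 genes, and each other array at 3 to 7. The share over all genes was not taken, so these counts are not particular to the members.

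No tRNA modification gene passed the test between KO and WT. Of their 79 kept probe sets 0 had a limma adjusted p under 0.05, against 0.0407% of all probe sets (11 of 27022), and their smallest adjusted p was 0.746. At an unadjusted p under 0.05 there were 5 of 79 (6.33%), against 5.11% of all probe sets. KO and WT values did not overlap at 10 of 79 (12.7%), against 11.0% of all probe sets. KO lay above WT at 6 of those (7.12% of all probe sets) and below WT at 4 (3.84% of all probe sets). Differences over 0.3 log2 in size were seen at 3 of 79 (3.8%), against 2.08% of all probe sets. These shares were near those of the whole array, and the last rests on 3 probe sets.

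With each gene read by its kept probe set of highest mean, 24 of the 50 genes stood higher in KO and 26 stood lower, and the median over the 50 differences was -0.0008 log2. Over all 13897 genes, 55.9% were higher in KO and the median was 0.0116. The difference was under 0.2 log2 in size for 47 of the 50 genes (94%), against 93.8% of all genes. The precision came from 3 arrays per group: the standard error of a difference ran from 0.05 to 0.19 log2 over the 79 probe sets. The 95% interval lay within 0.5 log2 on either side of 0 for 76 of the 79 probe sets, and the intervals of Thg1l, Adat2 and Trmt5 reached beyond it. The median interval reached 0.19 log2 to either side of the difference.

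None of the writers of the marks on which Alkbh1 has been reported to act passed the test. Trmt6, the non-catalytic subunit that binds tRNA in the cytosolic 1-methyladenosine methyltransferase, read 8.60, 8.56 and 8.55 in KO and 8.66, 8.42 and 8.64 in WT at probe set 1428754_at. Trmt61a, its catalytic partner, read 7.72, 7.74 and 7.62 in KO against 7.77, 7.58 and 7.49 in WT. The KO values of both subunits lay inside the WT range, and the differences were -0.004 ± 0.08 for Trmt6 and 0.08 ± 0.09 for Trmt61a (SE). The interval for Trmt6 ran from -0.19 to 0.18 and that for Trmt61a from -0.12 to 0.28. The second kept Trmt6 probe set differed by -0.03.

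Trmt61b, which makes 1-methyladenosine in mitochondrial tRNAs, had the largest standard error among the 79 probe sets. It read 7.55, 7.83 and 7.93 in KO and 7.33, 8.07 and 7.93 in WT, so that replicate 1 was the lowest array of each group. Its difference was -0.005 ± 0.19, and the interval from -0.45 to 0.44 was the widest among the mitochondrial enzymes. Nsun3, the methyltransferase that makes the 5-methylcytidine later oxidised by Alkbh1, read 7.74, 7.64 and 7.75 in KO against 7.69, 7.74 and 7.70 in WT at probe set 1436735_at. The groups overlapped, with a difference of -0.0004 ± 0.06 and an interval from -0.15 to 0.15. At 1437365_at it read 7.40, 7.52 and 7.52 in KO and 7.59, 7.38 and 7.65 in WT (-0.06 ± 0.09), and another kept probe set differed by 0.08. Probe set 1430654_at lay under the level filter with 3.44, 3.66 and 3.48 in KO and 3.41, 3.39 and 3.32 in WT, a difference of 0.15 without overlap.

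The other 5-methylcytidine writers differed by less than 0.1 log2 at their kept probe sets. Nsun2, which methylates the variable loop of many tRNAs, read 11.91, 11.86 and 11.88 in KO and 11.86, 11.76 and 11.84 in WT. All KO values lay above all WT values by a narrow margin (0.07 ± 0.05, limma adjusted p = 0.993). Trdmt1, also known as Dnmt2, methylates the anticodon loop of aspartate tRNA and differed by 0.003 ± 0.07, and Nsun6, which acts on the acceptor stem, by 0.07 ± 0.08. The second Trdmt1 probe set, 1419750_at, lay under the level filter, with 5.17, 4.95 and 4.97 in KO and 4.92, 4.88 and 4.93 in WT.

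**Figure D1:**
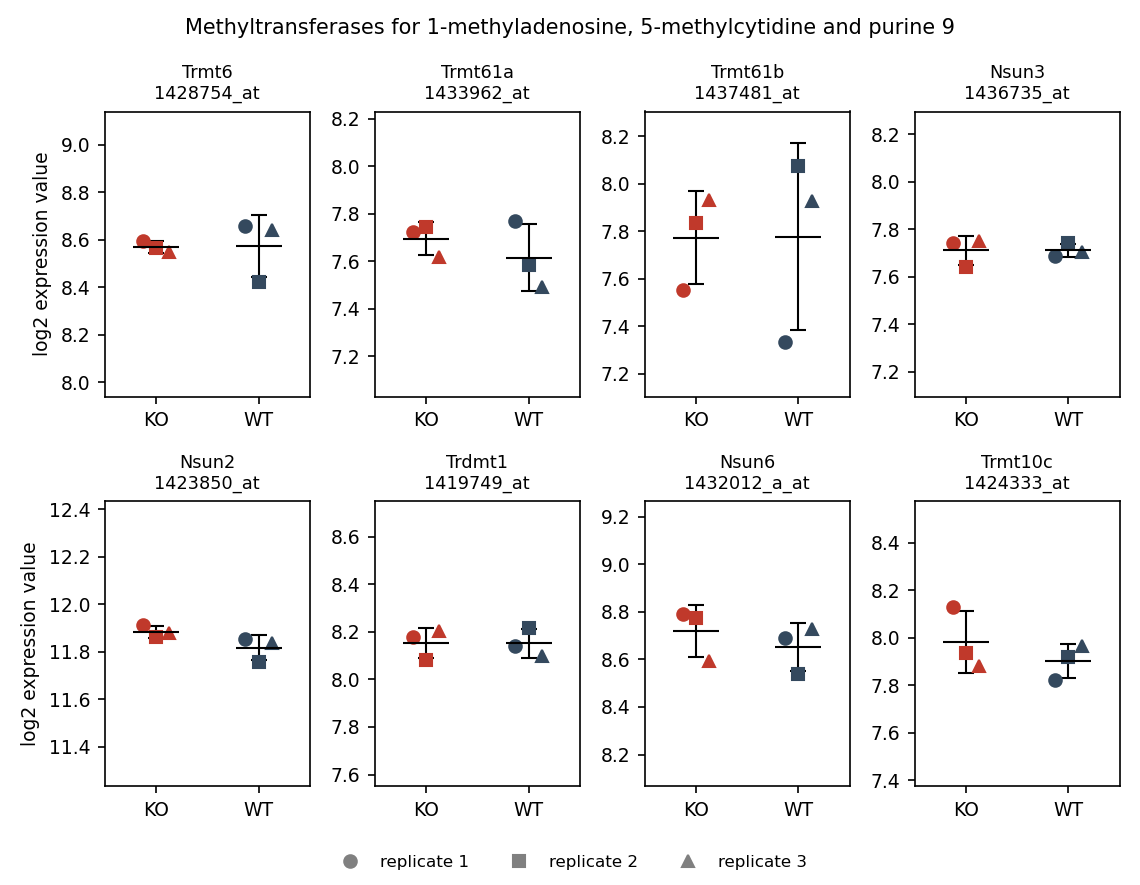
Log2 expression values (y axis) of 8 methyltransferase genes in the 3 KO and the 3 WT testes (x axis), each gene at its kept probe set of highest mean. Symbols mark the replicate number, bars the mean ± SD, and all panels span the same width of the log2 scale. KO and WT overlap for all but Nsun2, and Trmt61b has the widest spread, from 7.33 to 8.07 within WT.

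The methyltransferases of the tRNA body, Trmt6, Trmt61a and Trmt61b included, are 15 genes with 29 kept probe sets. None of these probe sets was at an unadjusted p under 0.05, against 5.11% of all probe sets. The largest gene-level difference, that of Trmt13, a 2′-O-methyltransferase of the acceptor stem, was 0.13 ± 0.08. The probe set of Trmt13 with the smallest p, 1453823_a_at, read 7.32, 7.46 and 7.40 in KO and 7.35, 7.18 and 7.15 in WT. The purine methyltransferases Trmt10a and Trmt10b, which act on the base between acceptor and D stem, differed by 0.10 and -0.04. Trmt10c, their mitochondrial relative and a subunit of mitochondrial RNase P, read 8.13, 7.94 and 7.88 in KO and 7.82, 7.92 and 7.97 in WT (0.08 ± 0.08). Mettl1 and Wdr4, the catalytic and the scaffold subunit for 7-methylguanosine, stood at -0.003 and 0.07.

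Trmt112, the small partner protein that stabilises several methyltransferases, differed by 0.04 ± 0.06 at 1425299_s_at. Its second probe set, 1460375_at, read 6.70, 6.68 and 6.64 in KO against 6.61, 6.19 and 6.63 in WT, a difference of 0.20 ± 0.12 without overlap, in which WT replicate 2 was the low array. That was the widest disagreement between kept probe sets of 1 gene, a span of 0.16. Its partner Trmt11, a guanosine methyltransferase, stood at 0.03. Trmt1, which dimethylates a guanosine at the hinge of the molecule, was at -0.01, Trmt2a, a uridine methyltransferase of the T loop, at -0.04 and its mitochondrial counterpart Trmt2b at -0.008. Trmt44, a 2′-O-methyltransferase of serine tRNA, stood at -0.08. Trmt2b read 6.70, 6.40 and 6.48 in KO and 6.70, 6.34 and 6.57 in WT, nearly the same spread in both groups.

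The 3 genes whose differences went past 0.3 log2 act at the 5′ end or in the anticodon loop. Thg1l, the enzyme that adds a guanosine to the 5′ end of histidine tRNA, read 8.55, 8.65 and 8.25 in KO and 8.003, 8.02 and 8.06 in WT at probe set 1432393_a_at. Every KO testis was above every WT testis, with KO replicate 3 the nearest to WT. The difference of 0.46 ± 0.10 (interval 0.22 to 0.69, 1.37-fold) had the smallest p of the 79 kept member probe sets, an unadjusted 0.00243, and did not pass the adjustment over all probe sets (limma adjusted p = 0.746). The second Thg1l probe set, 1453268_at, lay under the level filter with 6.05, 6.09 and 5.77 in KO and 5.93, 6.05 and 5.64 in WT. It overlapped between groups and differed by 0.09.

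Adat2 encodes the catalytic subunit of the deaminase that turns adenosine into inosine at the wobble position. It read 10.06, 9.88 and 10.14 in KO against 9.78, 9.53 and 9.67 in WT, again with no overlap. The difference was 0.37 ± 0.09 (interval 0.15 to 0.58, 1.29-fold, limma adjusted p = 0.835). Adat3, the partner without which Adat2 is not active, read 9.98, 9.91 and 9.78 in KO and 9.97, 9.85 and 9.78 in WT. KO and WT overlapped for Adat3, with a difference of 0.02 ± 0.08, and the difference between the partners was not tested. A further 2 probe sets name Adat3 together with another gene and were left out.

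Adat1, which deaminates the adenosine beside the anticodon of alanine tRNA, gave a divided picture. Its kept probe set 1425390_at read 6.69, 6.82 and 6.91 in KO and 6.80, 6.59 and 6.63 in WT, a difference of 0.14 ± 0.09 with overlap. Probe set 1420748_a_at lay under the level filter, with 5.63, 5.48 and 5.62 in KO and 5.17, 5.11 and 5.19 in WT. There KO was above WT in all arrays, by 0.42 ± 0.08 when all probe sets were tested without a filter (limma adjusted p = 0.439). Probe set 1444049_at, also under the filter, differed by 0.11 with overlap. Signal over background is unknown for these low values.

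Trmt5, which methylates the guanosine next to the anticodon in cytosolic and mitochondrial tRNAs and guards the reading frame, was the member with the largest negative difference. It read 9.01, 9.04 and 8.54 in KO and 9.36, 9.31 and 9.32 in WT. All KO values lay below the tight WT group, and KO replicate 3 was farther down than the other KO arrays. The difference was -0.47 ± 0.13 (interval -0.76 to -0.17, 1.38-fold lower, limma adjusted p = 0.863), and it was -0.30 without KO replicate 3. Trmt5 lies on chromosome 12, as Alkbh1 does, with 151 protein-coding genes between them in the RefSeq table. The other members on that chromosome were Trmt61a, at 0.08, and Dus4l, a dihydrouridine synthase, at -0.02. In the same gene order 167 protein-coding genes lie between Alkbh1 and Trmt61a and 312 between Alkbh1 and Dus4l, more than for Trmt5. Any part of chromosome position in these differences was not tested.

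**Figure D2:**
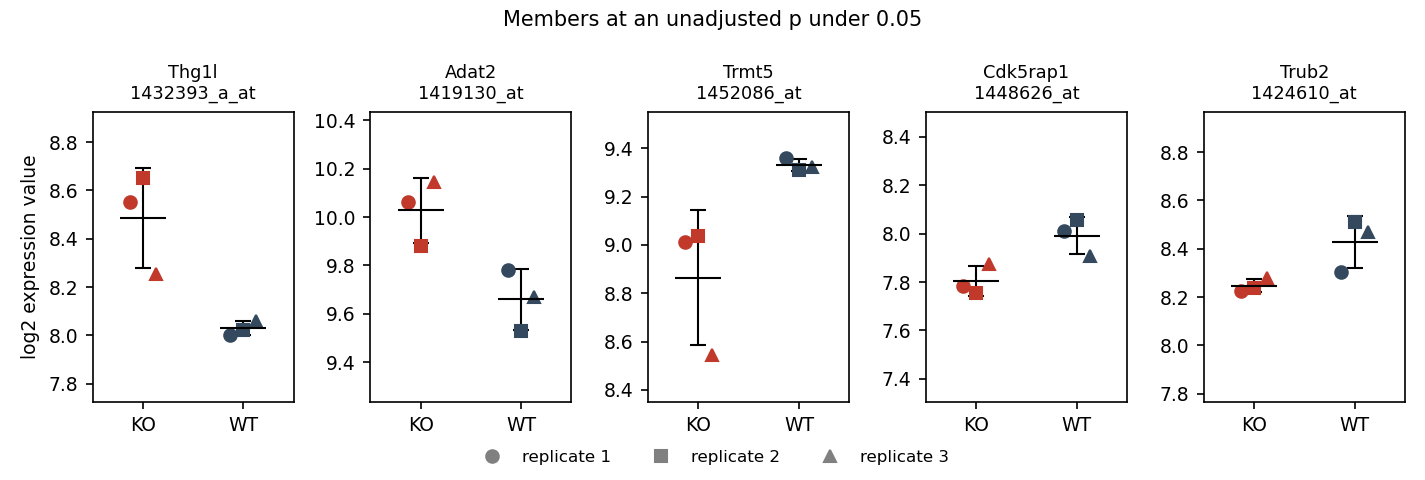
Log2 expression values (y axis) in the KO and the WT testes (x axis) at the 5 member probe sets with an unadjusted limma p under 0.05. Symbols mark the replicate number, bars the mean ± SD, and all panels span the same width of the log2 scale. KO lies above WT for Thg1l and Adat2 and below WT for Trmt5, Cdk5rap1 and Trub2, with no overlap, and none passed after adjustment over all probe sets.

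The start regions of Trmt5 and Adat2 are shown because each lies beside the start of another gene that was on the array. Both sequences are RefSeq windows of build GRCm38.p6, from 250 bases before to 50 bases after the start, written 5′ to 3′ on the strand of the gene. Capitals mark matches, on either strand, to letter strings that stand for common promoter elements. They are the CCAAT box searched by those letters, the Sp box as GGGCGG, the cAMP response element as TGACGTCA, the ETS box as CCGGAAG, the core of the NRF1 site as GCGCATGC and the TATA box as TATAAA. No marked matches overlap one another.
Trmt5, chr12:73286662-73286961, minus strand: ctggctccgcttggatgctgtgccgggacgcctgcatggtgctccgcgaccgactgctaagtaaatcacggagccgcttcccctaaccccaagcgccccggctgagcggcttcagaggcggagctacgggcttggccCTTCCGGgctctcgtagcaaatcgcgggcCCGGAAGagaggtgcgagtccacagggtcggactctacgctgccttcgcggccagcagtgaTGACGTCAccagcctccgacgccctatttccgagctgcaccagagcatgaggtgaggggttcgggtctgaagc
Adat2, chr10:13552657-13552956, plus strand: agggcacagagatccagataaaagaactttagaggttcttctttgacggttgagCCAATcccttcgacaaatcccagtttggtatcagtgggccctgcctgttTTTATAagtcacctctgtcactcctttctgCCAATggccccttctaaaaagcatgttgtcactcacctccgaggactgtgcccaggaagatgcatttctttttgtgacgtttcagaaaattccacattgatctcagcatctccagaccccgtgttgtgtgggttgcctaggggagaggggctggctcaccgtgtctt

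The Trmt5 window held 28 CpG dinucleotides, 2 ETS strings and 1 cAMP response element, and no TATA string. From it Slc38a6, a gene of the amino acid transporter family, starts in the other direction, 137 bases away. Slc38a6 read 8.03, 8.09 and 7.99 in KO and 7.98, 7.92 and 7.87 in WT at probe set 1457266_at, with a difference of 0.11 ± 0.07 opposite in sign to that of Trmt5. Its other probe set stood at 0.23 ± 0.10 (limma adjusted p = 0.984). The Adat2 window was unlike it, with 6 CpG dinucleotides, 2 CCAAT strings and 1 TATA string. On the opposite strand and 235 bases away starts Pex3, a gene of peroxisome assembly, which read 11.75, 11.72 and 11.68 in KO and 11.68, 11.73 and 11.80 in WT (-0.02 ± 0.05). The groups overlapped for Pex3, and the differences between neighbours were not tested.

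Over the 46 members with a window in the table (56 windows), ETS strings were in 28.6% of windows, against 8.86% of all 32851 windows. The cAMP response element was in 8.93% against 1.79%, the Sp string in 46.4% against 35.7%, the NRF1 core in 5.36% against 2.71%, the CCAAT string in 37.5% against 37.4% and the TATA string in 5.36% against 13.6%. The median number of CpG dinucleotides was 21 in the windows of the members and 7 in all windows. These shares are a description with no test. The set of all windows covers 27025 genes, among them genes without a kept probe set. No share was taken over genes of like level or CpG number. The cAMP response element was in 5 member windows, and the NRF1 core and the TATA string were in 3 each. Of the members 18 had the start of a protein-coding gene on the opposite strand within 500 bases. In 15 of these pairs both genes had a kept probe set, and the differences had the same sign in 6 and opposite signs in 9. Among these pairs was Pus3, a pseudouridine synthase of the anticodon stem, whose start lies 90 bases from that of Ddx25, a helicase gene of spermatids: Pus3 differed by -0.12 and Ddx25 by 0.01.

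The other enzymes of the anticodon loop that are no deaminases differed by less than 0.2 log2. Cdk5rap1, which adds a methylthio group beside the anticodon of mitochondrial tRNAs, read 7.79, 7.75 and 7.87 in KO and 8.01, 8.06 and 7.91 in WT. All KO values were lower, with KO replicate 3 and WT replicate 3 only a little apart, and the difference was -0.19 ± 0.07 (interval -0.35 to -0.02, limma adjusted p = 0.918). Against WT replicate 3 alone it was -0.10. Trit1, which adds an isopentenyl group to the adenosine that Cdk5rap1 then modifies, stood at 0.04 ± 0.09 with overlap. Osgep, the catalytic subunit of the KEOPS complex, and Yrdc, which makes the threonylcarbamoyl donor for it, stood at -0.06 and -0.01. Qtrt1, which exchanges guanine for queuine at the wobble position, read 8.85, 8.67 and 8.60 in KO and 8.63, 8.42 and 8.54 in WT (0.17 ± 0.09). Ftsj1, a 2′-O-methyltransferase of the anticodon loop on the X chromosome, was at -0.04. Its second probe set, 1430381_at, read 6.90, 6.87 and 6.84 in KO and 6.93, 6.92 and 6.96 in WT, narrowly without overlap (-0.06 ± 0.06).

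Wobble uridine enzymes make the side chains and thiol groups that stabilise pairing with the codon. None of the 12 kept probe sets of these 8 genes was at an unadjusted p under 0.05 (5.11% of all probe sets) or without overlap (11.0% of all probe sets). The Elongator subunits Elp2, Elp3 and Elp4 differed by -0.05, 0.03 and -0.10. Ctu1, the thiolation enzyme that follows Elongator, read 6.45, 6.32 and 6.37 in KO and 6.42, 6.06 and 6.13 in WT. These lay near the lower end of the kept values. Its difference was 0.18 ± 0.11, against -0.07 ± 0.12 for its partner Ctu2.

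Of these genes Mto1, Gtpbp3 and Trmu act in mitochondria. Mto1, which with Gtpbp3 installs the taurine side chain, read 9.53, 9.49 and 9.51 in KO against 9.37, 9.64 and 9.51 in WT. The KO values lay within the WT range, with a difference of -0.001 ± 0.08. Gtpbp3 read 7.05, 6.96 and 6.81 in KO and 7.22, 6.95 and 6.91 in WT (-0.09 ± 0.11). Trmu, the mitochondrial thiolation enzyme, read 7.58, 7.59 and 7.64 in KO and 7.64, 7.43 and 7.43 in WT (0.10 ± 0.08). Neither separated the groups: for Gtpbp3, KO replicates 1 and 2 lay above WT replicates 2 and 3, and for Trmu, WT replicate 1 was the highest of the 6 arrays.

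Pseudouridine synthases turn uridine into its carbon-linked isomer. Trub2, a mitochondrial enzyme of this kind, had negative differences at all 3 of its probe sets. At 1424610_at it read 8.23, 8.24 and 8.28 in KO and 8.31, 8.51 and 8.47 in WT (-0.18 ± 0.07, limma adjusted p = 0.943), with WT replicate 1 close to the KO values. At 1424611_x_at and 1451408_at the differences were -0.16 ± 0.09 and -0.10 ± 0.07, with overlap at both. Coq4, a coenzyme Q gene that starts 178 bases away on the opposite strand, stood at -0.05. Trub1, the nuclear synthase for the T loop, read 6.64, 6.57 and 6.65 in KO and 6.54, 6.39 and 6.54 in WT, a small difference without overlap (0.13 ± 0.08). Pus1, Pus7 and Pus10 stood at 0.05, -0.01 and -0.06.

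Dihydrouridine synthases reduce uridines, mostly those of the D loop. Dus1l read 10.83, 10.84 and 10.82 in KO and 10.74, 10.82 and 10.79 in WT at 1423943_at (0.05 ± 0.05), where KO lay just above WT, while its second probe set stood at -0.04 with overlap. Dus2, Dus3l and Dus4l differed by 0.06, -0.01 and -0.02. Of the wybutosine enzymes, which build the tricyclic base of phenylalanine tRNA, Tyw1 read 7.95, 7.93 and 8.03 in KO and 8.11, 8.05 and 7.93 in WT (-0.06 ± 0.07), and Lcmt2 differed by 0.04 ± 0.13. Trmt12 and Tyw3 lay under the level filter, with 4.19, 4.55 and 4.63 in KO and 4.52, 4.45 and 4.62 in WT for Trmt12, and 5.65, 5.77 and 5.51 in KO and 5.73, 5.68 and 5.81 in WT for Tyw3. Both overlapped between groups.

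**Figure D3:**
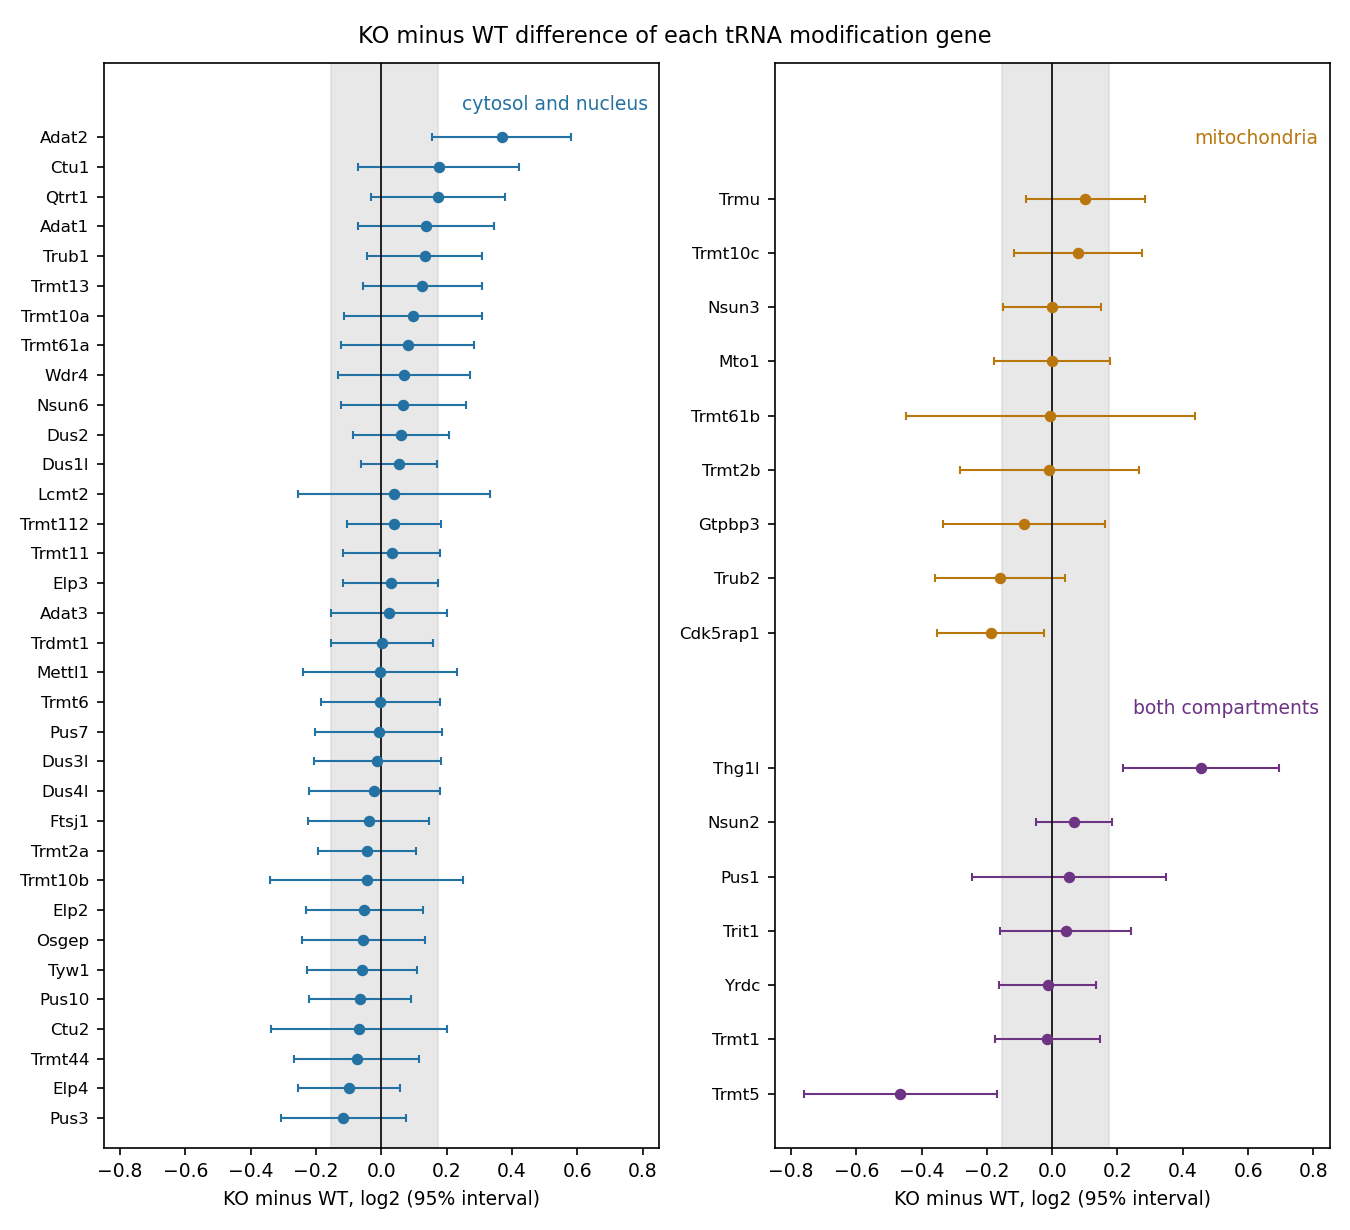
KO minus WT difference of the log2 expression value (x axis) for the 50 genes with a kept probe set (y axis), each at its probe set of highest mean, with the 95% interval from the limma fit. Colours give the compartment of the enzyme and the grey band holds the middle 90% of all genes, from -0.15 to 0.17. The intervals of Thg1l, Adat2, Trmt5 and Cdk5rap1 exclude 0, before any adjustment.

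Grouped by compartment, 36 members act in the cytosol and nucleus, 9 in mitochondria and 7 in both. Kept probe sets were found for 34, 9 and 7 of them. Of the mitochondrial genes 7 of 9 stood below WT in the KO testes, with a median of -0.0052 log2 and a range from -0.19 to 0.10. The cytosolic and nuclear genes were lower in 16 of 34, with a median of 0.0131 and a range from -0.12 to 0.37. The genes of both compartments were lower in 3 of 7, with a median of 0.042 and a range from -0.47 to 0.46. These medians lie within 0.05 log2 of each other and of the 0.0116 of all genes, 4 of the 7 lower mitochondrial differences were under 0.01 in size, and the difference between compartments was not tested.

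Per array, the compartments did not separate KO from WT. The median deviation of the mitochondrial genes from the mean of all arrays was 0.026, -0.027 and -0.001 in the KO testes and -0.011, 0.031 and 0.010 in the WT testes. That of the cytosolic genes was 0.029, 0.029 and -0.025 in KO and -0.003, -0.027 and -0.019 in WT. KO replicate 3 lay with the WT arrays for the cytosolic genes, and without it their median difference was 0.042. For genes of both compartments, the median difference became -0.021 without WT replicate 3, and for the mitochondrial genes it was 0.0078 without KO replicate 2 and 0.0150 without WT replicate 2.

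**Figure D4:**
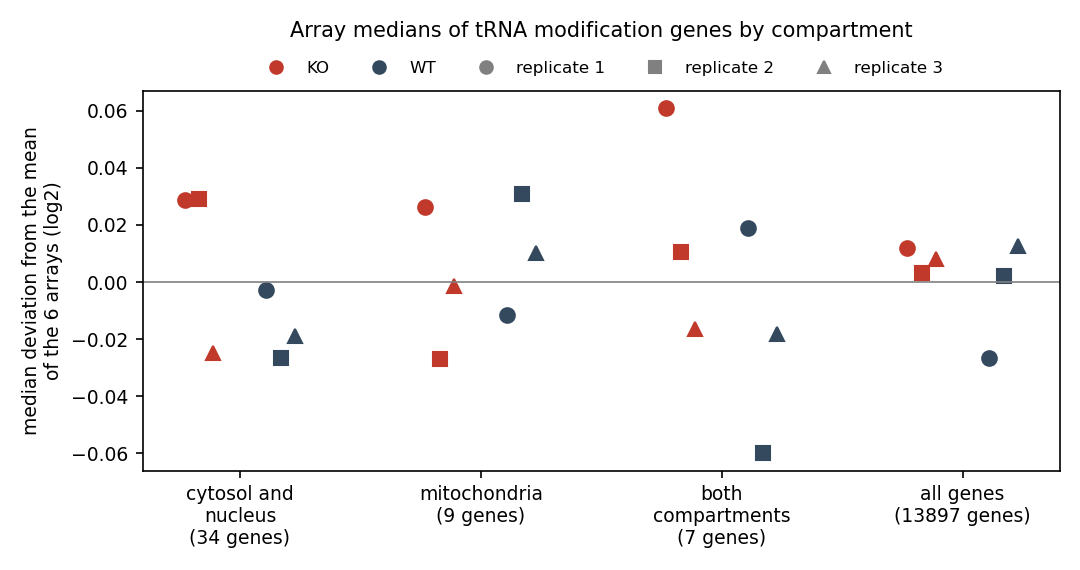
Median deviation of the log2 value from the mean of the 6 arrays (y axis), over the genes of each compartment and over all genes (x axis), for each KO and WT testis. Symbols mark the replicate number. KO and WT arrays overlap in every group, and all medians lie between -0.060 and 0.061.

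The levels themselves spanned a wide range in each compartment. Mean log2 values of the probe sets that stood for a gene ran from 6.53 (Trmt2b) to 9.51 (Mto1) among mitochondrial enzymes, from 6.29 (Ctu1) to 11.29 (Trmt10a) among those of the cytosol and nucleus, and from 6.90 (Trit1) to 11.85 (Nsun2) among those of both. Probe sets differ in how well they bind, so these values order no gene above another. Under the level filter lay 6 of 19 mitochondrial probe sets, 21 of 78 cytosolic ones and 1 of 10 of both. Of those 28 probe sets 5 had no overlap between groups (17.9%), against 9.4% of all 18015 probe sets under the filter. KO lay above WT at 4 of them (14.3%), against 4.64% of all probe sets under the filter, and these counts are small and were not tested. They belonged to Adat1, Nsun3, Trdmt1 and Pus3, the last with 1 probe set in each direction.

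Where a gene had several kept probe sets (20 genes), their signs matched in 9. No gene had kept probe sets that differed in sign and by over 0.3 log2.

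Other genes of tRNA modification did not pass the test either. Of 39 further genes, among them Elongator and KEOPS subunits, the queuosine partner Qtrt2 and the wobble methyltransferase Alkbh8, 34 had a probe set and 30 a kept one. None of their 51 kept probe sets passed (limma), against 0.0407% of all probe sets. Of the 30 genes 20 were higher in KO, against 55.9% of all genes. Their median was 0.0205, against 0.0116 for all genes. At an unadjusted p under 0.05 there was 1 (1.96%, against 5.11% of all probe sets), that of Trmt1l, a paralogue of Trmt1. It read 8.94, 8.88 and 8.98 in KO and 8.78, 8.68 and 8.79 in WT, without overlap (0.18 ± 0.06, limma adjusted p = 0.898). Its other kept probe sets differed by 0.19 and -0.05. Trmt1 itself stood at -0.01 ± 0.07 with overlap.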

How the data were processed

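A single table of normalised log2 values for 45101 probe sets was deposited by the authors, with 1 array per mouse and 6 arrays in all. The submitters' processing notes name GCOS 1.4. How background, probe summary and array normalization were handled is not stated. That the scale is log2 was judged from the range of the values (2.61 to 15.0) and the array medians (6.62 to 6.65). If arrays were scaled to each other, a shift shared by all transcripts would not be visible. If background remained in the values, differences of low values are understated, and whether it remained is not known. Detection calls were not used here.

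Samples were grouped by title. After removal of 64 control probe sets, the 60% of the other 45037 with the highest mean log2 entered the test (27022, lowest mean 6.02). Names came from the platform annotation, updated by gene ID through a RefSeq table (GRCm38.p6). KO was compared with WT by limma 3.58.1 in R 4.3.3 (lmFit, eBayes with intensity trend, two-sided), with Benjamini-Hochberg adjustment over all kept probe sets at 0.05. The fit was tested on simulated arrays of the same number, with 200 changed probe sets per run. It recovered 2.8% of changes of 0.25 log2, 51.2% of 0.5, 88% of 1 and 98.4% of 2. Changes of the size seen at the members could thus often be missed.

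Members, lists, compartments and tests were chosen with earlier results of these data known. Values per array are given for members at an unadjusted p under 0.05, for the smallest p of each role, for mitochondrial members, and, chosen after their values were seen, for writers of marks linked to Alkbh1, Adat1, Adat3, Qtrt1, Ftsj1, Trub1, Trmt112, low probe sets and neighbours. Deviations of same-numbered replicates correlated at -0.024 to 0.223, which cannot settle whether they were paired. Alternatives covered normalization, level filter, replicate block, moderation, array weights, choice of probe set and left-out arrays.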

Additional observations from a re-analysis of the deposited data

How the results depend on the processing

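No member probe set passed under any of the 14 alternative fits, with smallest adjusted p from 0.153 (array weights) to 1. Of 689 differences of single members under an alternative, 683 moved by less than 1 SD between replicates and 6 by more. Thg1l kept its sign in all 14 (0.37 to 0.57), as did Adat2 (0.30 to 0.44) and Trmt5 (-0.55 to -0.30). The level filter, the replicate block and the intensity trend cannot change the difference of a probe set. Under those settings an unmoved value and a kept sign were fixed in advance, and such values are counted among the 683. KO and WT values did not overlap for Thg1l, Adat2 and Trmt5. For these genes, leaving out or weighting arrays could not change the sign either, only the size. The count over all probe sets, 11, was 46 with array weights, 7 with the upper 40% by level, 2 with WT replicates 1 and 2 left out together, and 2 to 12 with each array left out in turn (2 without KO replicate 3, 4 without WT replicate 3, 6 without KO replicate 1). With both WT arrays out, 1 WT array remained and was assumed to vary like the KO arrays, and Alkbh1 was at -3.30 (adjusted p = 0.0631), so those values carry fewer samples and no WT spread. The median difference of the members, -0.0008, was 0.0213 with array weights and ran from -0.0034 to 0.0284 with each array left out. Leaving out each array gave -0.0059 to 0.0418 for cytosolic enzymes and -0.0212 to 0.0688 for those of both compartments. The causes were not tested.

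Deviations of same-numbered arrays from their group means correlated at 0.223, -0.024 and 0.0964. KO replicates 1 and 2 both correlated best with WT replicate 1 (0.223 and 0.0579), and KO replicate 3 with WT replicate 2 (0.252). Deviations within a group sum to 0, so these correlations depend on one another. They cannot settle whether same-numbered samples were paired. With the replicate number as a block, 9 probe sets passed and no member did. The number of arrays and the unknown signal over background limit what can be seen for members under the level filter.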
